A study of Rattus norvegicus with 45 samples.

Results

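Gene expression in VTA was compared between rats that received an H3.3Q5A vector and rats that received an H3.3 WT vector after heroin self-administration (SA). The comparison held 15 of the 45 libraries of the series, 8 from heroin H3.3Q5A and 7 from heroin H3.3 WT rats, and 20412 of the 32883 genes in the table, those above its lowest value in at least 7 of the 15 libraries. All were male Sprague-Dawley rats of 250 to 275 g that took heroin for 10 d, had the vector infused into VTA on day 11 and spent 30 d in abstinence. The 8 heroin empty rats, given a vector without a histone on the same schedule, are shown beside them as a further control, and the 6 groups of the series together held 44 libraries with a clear label. Each library came from a 2 mm punch of 1 rat, taken under a fluorescent guide, so it held infected and uninfected cells of every type in the punch. In such bulk samples, fewer cells of a type and less RNA per cell cannot be told apart.

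H3.3 is the histone H3 variant that neurons deposit outside of cell division. Transglutaminase 2, encoded by Tgm2, can attach dopamine to the glutamine at position 5 of histone H3, a mark called H3Q5dop. The H3.3Q5A protein carries an alanine there, which cannot accept dopamine, and H3.3 WT serves as the control for the added histone itself. The VTA contains dopamine neurons, which project to the ventral striatum, with GABA and glutamate neurons, and is crossed by myelinated fibers. The comparison asked which genes differ during abstinence from heroin when this glutamine is replaced by alanine. According to the paper, the H3.3Q5A vector blocks every modification at that position, not only dopamine. The paper adds that other monoamine marks give no appreciable signal in VTA.

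The deposited values are variance-stabilized counts, which run on a log2-like scale and start at 5.73 for a count of 0. Fold changes are differences between these values, and at low read numbers they are smaller than the ratio of the reads. The libraries held 28228711 to 51863605 reads on genes in heroin H3.3 WT and 39805541 to 58316382 in heroin H3.3Q5A rats. H3.3Q5A libraries were 1.19-fold deeper on average, with a p of 0.0482 in a two-sided exact permutation test. The table holds gene identifiers only, and 1997 of the 20412 tested genes could be named. Names came from the readable rows of a supplementary table ordered by a saline contrast, so named genes are no random draw. They had a higher median value than all genes tested (10.91 against 9.03). The named members of a list may therefore not stand for its other members. None of the 20 dopamine neuron markers looked for, and neither gene for H3.3, was among the named genes, so the labelled region and the expression of the vectors were not checked here.

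Named genes that were higher in H3.3Q5A than in H3.3 WT rats included connective tissue, meningeal and smooth muscle genes such as Slc6a20, Col1a1 and Tagln. Those that were lower included myelin, cholesterol synthesis and neuronal genes such as Opalin, Mvk and Hcn2. A total of 674 genes were DEx (adjusted p under 0.05 by limma over all genes tested, log2 fold change beyond 0.2), which is 3.3% of the genes tested. Of these, 479 were upregulated (2.35%) and 195 downregulated (0.955%). The median size was 0.53 on the log2 scale for upregulated and 0.36 for downregulated genes. Downregulated genes had higher expression, with a median value of 11.23 against 8.72 for upregulated genes. With each library centred on its median, 422 genes were upregulated and 701 downregulated, so the direction of the balance depends on the scaling. Among named genes, 104 were DEx (5.21%), of which 62 were upregulated (3.1%) and 42 downregulated (2.1%).

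**Figure D1:**
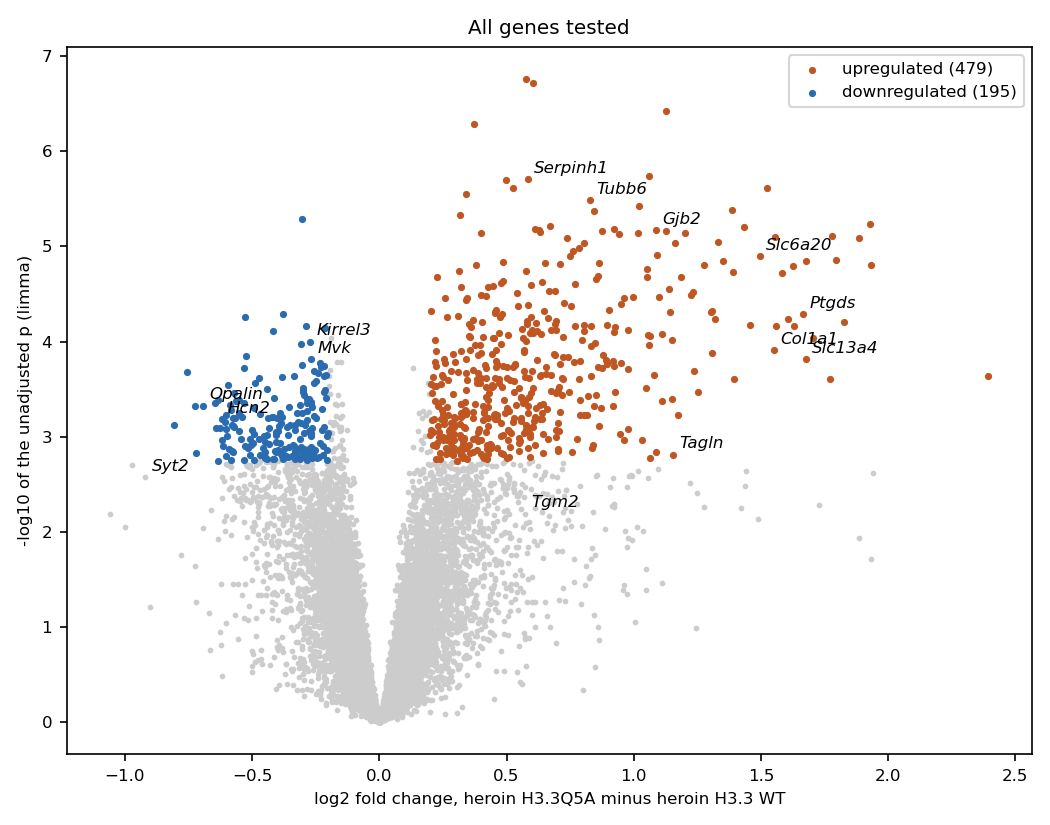
Log2 fold change of heroin H3.3Q5A against heroin H3.3 WT (x axis) and -log10 of the unadjusted p from limma (y axis) for the 20412 genes tested. The 479 upregulated genes reach a fold change of 2.39, while the largest change among the 195 downregulated genes was -0.81.

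The calls depended on which libraries entered the fit. No gene was DEx when the fit used the 15 libraries of these 2 groups alone, although 3755 genes had an unadjusted p under 0.05 by limma, against 3817 in the fit of all 6 groups. Counts with 1 rat left out ran from 172 without H3.3Q5A rat 25 to 1571 without H3.3Q5A rat 21. They were also more than 1.5 times lower without H3.3Q5A rat 26 (218), rat 37 (362) and rat 39 (425) and without H3.3 WT rat 11 (220), rat 38 (294) and rat 51 (392). The H3.3Q5A rats were uneven. Rat 25 was above every H3.3 WT rat for 97.5% of the upregulated genes and rat 26 for 97.1%, but rat 24 for 41.96% and rat 21 for 20.7%. These shares describe genes that were called on the same rats. Of the 47 DEx genes described here, 21 were DEx in each of the 15 fits with 1 rat left out and 8 in at most 6 of them.

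**Figure D2:**
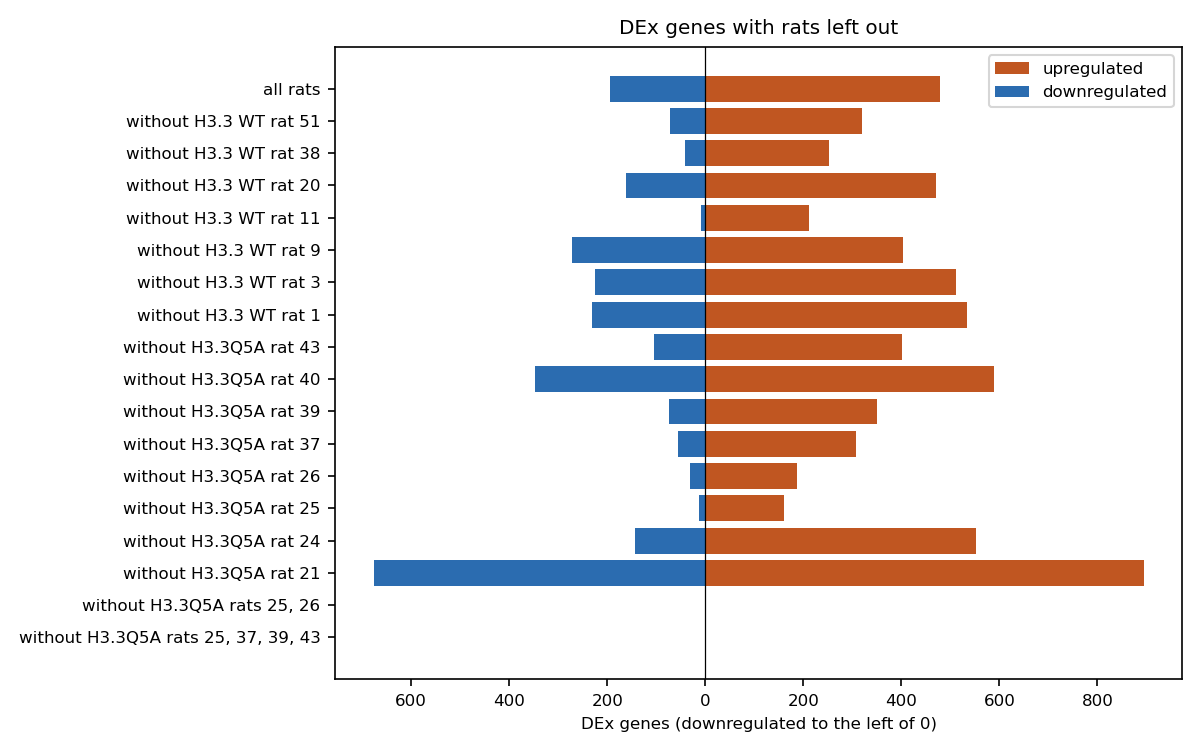
Number of upregulated (right of 0) and downregulated (left of 0) DEx genes with all rats and with rats left out. Counts ran from 172 without H3.3Q5A rat 25 to 1571 without H3.3Q5A rat 21, and no gene was DEx without rats 25 and 26 or without rats 25, 37, 39 and 43.

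The promoters of 2 upregulated and 2 downregulated genes with different roles are shown because results on these genes follow. Each is the 250 bases before the start of the gene from RefSeq, build GRCr8, printed 5′ to 3′ along the gene, which lies on the minus strand in all 4 cases. They are at chr1:163062977-163063226, chr15:35381954-35382203, chr1:249858191-249858440 and chr12:47819504-47819753. Capitals mark matches to GGGCGG or CCAAT on either strand (CCGCCC and ATTGG on the other strand) or to CAGCTG.
Serpinh1: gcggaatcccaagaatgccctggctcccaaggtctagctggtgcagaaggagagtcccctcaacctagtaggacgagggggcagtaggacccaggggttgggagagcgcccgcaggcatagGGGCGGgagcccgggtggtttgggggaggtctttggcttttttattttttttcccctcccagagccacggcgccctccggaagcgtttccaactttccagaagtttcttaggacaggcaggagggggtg
Gjb2: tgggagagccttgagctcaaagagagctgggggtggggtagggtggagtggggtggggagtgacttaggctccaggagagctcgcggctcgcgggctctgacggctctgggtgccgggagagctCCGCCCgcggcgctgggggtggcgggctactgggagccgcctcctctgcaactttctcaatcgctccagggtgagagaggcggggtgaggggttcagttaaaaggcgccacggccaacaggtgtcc
Opalin: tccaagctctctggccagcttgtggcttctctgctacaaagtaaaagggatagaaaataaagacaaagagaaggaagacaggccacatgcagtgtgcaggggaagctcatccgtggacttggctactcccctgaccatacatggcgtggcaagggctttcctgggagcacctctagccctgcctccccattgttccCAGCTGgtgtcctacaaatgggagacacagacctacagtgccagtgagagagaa
Mvk: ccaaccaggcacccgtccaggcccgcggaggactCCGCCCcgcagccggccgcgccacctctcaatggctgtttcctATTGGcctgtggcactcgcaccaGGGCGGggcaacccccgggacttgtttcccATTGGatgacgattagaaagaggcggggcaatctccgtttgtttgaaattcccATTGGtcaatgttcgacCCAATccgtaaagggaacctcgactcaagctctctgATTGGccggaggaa

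The GC-rich GGGCGG letters, which resemble binding sites of Sp1-type factors, occurred in 31 of 40 upregulated promoters (77.5%) and in 20 of 36 downregulated ones (55.6%). These are the promoters matched by symbol for the 62 upregulated and 42 downregulated named genes. They were in 59.7% of the 1514 promoters of named and tested genes and in 32.4% of all 27456 RefSeq promoters of that length. CCAAT, the core of the CCAAT box, was in 12 upregulated (30.0%) and 11 downregulated promoters (30.6%), against 35.9% of named and tested genes and 34.3% of all promoters. The palindrome CAGCTG, an E-box, was in 7 upregulated (17.5%) and 5 downregulated promoters (13.9%), against 11.4% of named and tested genes. TATAAA, searched on the gene's strand, was in 2 upregulated and 1 downregulated promoter, against 4.36% of named and tested genes. GTAAACA, a forkhead motif searched on both strands, was in 0 of the promoters of either set and in 1.59% of named and tested genes. The CArG box, bound by serum response factor, was in 0 upregulated and 1 downregulated promoter and in 0.859% of named and tested genes. The Mvk promoter printed above holds 5 CCAAT and 2 GGGCGG matches, and that of Opalin holds neither. A match is a description of the letters and no evidence of binding.

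Among named genes above the median level, the 5 that rose most were Slc13a4, Ptgds, Col1a1, Slc6a20 and Fbln1. These are known from meninges or matrix, though not only from there. Of 15 ependyma and choroid plexus markers 0 could be named, so a part of that tissue was not tested. Slc6a20, a proline and amino acid transporter of meninges and epithelia, ran from 9.44 to 11.67 with a median of 10.88 in H3.3Q5A rats and from 8.78 to 9.73 with a median of 8.89 in H3.3 WT rats. Its level was higher in 6 of 8 H3.3Q5A rats than in any H3.3 WT rat, while the remaining rats lay within the H3.3 WT range. The log2 fold change was 1.497 ± 0.30 (SE) with an adjusted p of 0.00612 by limma. In library-normalized reads, means were 1744 and 493, a 3.54-fold difference. Slc13a4, a sulfate transporter, rose by 1.68 ± 0.40 (adjusted p = 0.0165), from means of 9.06 ± 0.72 (SD, n = 7) in H3.3 WT to 10.73 ± 1.20 (SD, n = 8) in H3.3Q5A rats. Ptgds, the prostaglandin D2 synthase that is abundant in leptomeninges and oligodendrocytes, rose by 1.67 ± 0.37 (adjusted p = 0.0103). Its normalized reads were 81193 on average in H3.3Q5A against 22404 in H3.3 WT rats. H3.3Q5A rats 21 and 24 sat at 14.13 and 15.10, inside the H3.3 WT range of 13.46 to 15.32.

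Several genes for matrix proteins rose. Col1a1, a chain of type I collagen, was 11.22 ± 1.05 (SD, n = 8) in H3.3Q5A and 9.67 ± 0.61 (SD, n = 7) in H3.3 WT rats, a log2 fold change of 1.55 ± 0.37 (adjusted p = 0.0147). Heroin empty rats were at 10.04 ± 0.75 (SD, n = 8). Fbln1, which encodes the matrix protein fibulin 1, rose by 1.28 ± 0.26 (adjusted p = 0.00612). Thbs2, a thrombospondin, rose by 1.05 ± 0.22, and Mgp, the matrix Gla protein that restrains calcification, by 0.95 ± 0.21. Fn1, fibronectin, was 12.11 to 13.36 with a median of 12.32 in H3.3Q5A and 11.34 to 12.09 with a median of 11.86 in H3.3 WT rats, and the groups did not overlap. Its fold change was 0.67 ± 0.17 (adjusted p = 0.0226).

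Serpinh1, a collagen chaperone of the endoplasmic reticulum, had the lowest p of the named genes. Its values were 11.73 to 12.80 with a median of 12.07 in H3.3Q5A rats and 11.47 to 11.72 with a median of 11.66 in H3.3 WT rats. All 8 H3.3Q5A rats lay above all 7 H3.3 WT rats. The fold change was 0.58 ± 0.11 (adjusted p = 0.0049). Such separation occurred in 47 of all genes tested (0.23%). Tubb6, a tubulin of many non-neuronal cells, separated likewise, at 8.66 to 9.52 against 7.96 to 8.56, a fold change of 0.83 ± 0.15 (adjusted p = 0.0049). Pnrc2, a nuclear receptor coactivator with a role in mRNA decay, separated with a small change of 0.23 ± 0.05 (adjusted p = 0.00694).

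Signaling and transport genes were among the rest. Gjb2, a gap junction protein of leptomeningeal cells, rose by 1.09 ± 0.21 (adjusted p = 0.0049), with 6 of 8 H3.3Q5A rats above every H3.3 WT rat. Bmp7 and Bmp6, which encode bone morphogenetic proteins made in meninges among other tissues, rose by 1.30 ± 0.29 and 1.14 ± 0.25 (adjusted p = 0.0103 for both). Foxc1, a transcription factor needed for the meninges to form, rose by 0.70 ± 0.20 (adjusted p = 0.0439). Cxcl16, a membrane-bound chemokine, rose by 0.86 ± 0.18 and Ifitm2, an interferon-inducible membrane protein, by 0.71 ± 0.14 (adjusted p = 0.00612 for both). Smaller increases were found in Bcat2, which degrades branched amino acids (0.45 ± 0.09), Btg1, an antiproliferative gene (0.40 ± 0.09), and Eif4ebp1, a repressor of translation initiation (0.42 ± 0.09). Without a name, the lowest p belonged to ENSRNOG00000058011, which rose by 0.58 ± 0.09 (adjusted p = 0.00194), and to ENSRNOG00000059890, which rose by 0.60 ± 0.10 from few reads (18 against 2 normalized reads on average).

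In the list of meningeal fibroblast markers, 3 of 14 genes were named and all 3 rose (Col1a1, Bmp6, Foxc1), against 3.1% of all named genes. Members of the list without a name could not be looked at. The median of the 3 was 1.14 on the log2 scale against 0.0018 for all genes tested. Their mean per rat ran from 9.02 to 11.44 in H3.3Q5A and from 8.57 to 9.70 in H3.3 WT rats. Of 10 mural cell markers, 5 were named and 2 rose, against 3.1% of all named genes. Tagln, a smooth muscle protein, rose by 1.15 ± 0.34 (adjusted p = 0.0467), and Des, the muscle intermediate filament, by 0.95 ± 0.27 (adjusted p = 0.0361). Acta2, smooth muscle actin, had a fold change of 1.06 and an adjusted p of 0.0602, while the pericyte receptors Pdgfrb and Notch3 were at 0.27 and -0.023. Tagln overlaps Sidt2, and the libraries do not mark strand, so the reads of overlapping genes cannot be told apart. Of 31 matrix genes, 5 were named and 2 rose (Fbln1 and Fn1), against the same 3.1%. The matrix metalloproteases Mmp2 and Mmp14 were at 0.028 and 0.61 (adjusted p = 0.936 and 0.0837) and Loxl1, which crosslinks elastin, at 0.67 (adjusted p = 0.0924). Calls near the threshold were lost with some rats left out. Tagln was called in 3 of 15 fits with 1 rat left out and Des in 6, with adjusted p of up to 0.14 and 0.121, both without H3.3Q5A rat 25. Without the same rat Foxc1, called in 4 of 15, had an adjusted p of 0.137.

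Of 8 named endothelial markers, 1 was called, against 5.21% of all named genes. Cdh5, the adhesion molecule of endothelial junctions, rose by 0.49 ± 0.14 (adjusted p = 0.0464), but was called in 5 of 15 fits with 1 rat left out. The other 7 had no call and ran from -0.14 to 0.28, and the list median was -0.035. Astrocyte and microglial genes had no call either. Aldoc, an astrocytic glycolytic enzyme, was at -0.18 ± 0.07, Ntsr2, an astrocytic neurotensin receptor, at 0.11 ± 0.12, and Cx3cr1, the microglial fractalkine receptor, at -0.15 ± 0.12.

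Blood and pituitary genes varied between rats of the same group, and none was DEx. All 6 named blood genes were above 0, with a list median of 0.68. Their mean per rat was 9.41 to 10.82 in H3.3Q5A, 9.10 to 10.06 in H3.3 WT and 8.99 to 10.17 in heroin empty rats, and the ranges overlapped. Hbb, which encodes a hemoglobin chain, had a fold change of 0.89 ± 0.33 (adjusted p = 0.11). Multi-mapped reads were removed before counting, so reads that the near-identical globin genes Hba-a1 and Hba-a2 share may be lost, and their values are uncertain. The pituitary hormone gene Cga, the shared subunit of glycoprotein hormones, was 6.12 to 9.64 with a median of 8.35 in H3.3Q5A rats and 5.73 to 6.80 with a median of 5.94 in H3.3 WT rats. Its difference was 1.88 ± 0.71 (adjusted p = 0.123). Cga was highest in H3.3Q5A rats 25, 43, 37 and 39, at 9.64, 9.21, 8.91 and 8.90, while the meningeal markers were highest in rats 26 and 25. In heroin empty rats Cga ran from 5.73 to 10.40 with a median of 6.24, and the highest of them, rat 21, lay above every H3.3Q5A rat. Tshb, the thyrotropin subunit, was at 0.70 ± 0.47. The part of these tissues in the differences between the vectors was not tested. In fits chosen after seeing the data and with fewer samples, no gene was DEx without H3.3Q5A rats 25 and 26 or without rats 25, 37, 39 and 43, where 2237 and 1550 genes had an unadjusted p under 0.05 by limma. The log2 fold change in those fits was 1.19 and 1.16 for Slc6a20, 1.10 and 1.31 for Col1a1, -0.50 and -0.53 for Opalin and -0.50 and -0.42 for Hcn2.

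**Figure D3:**
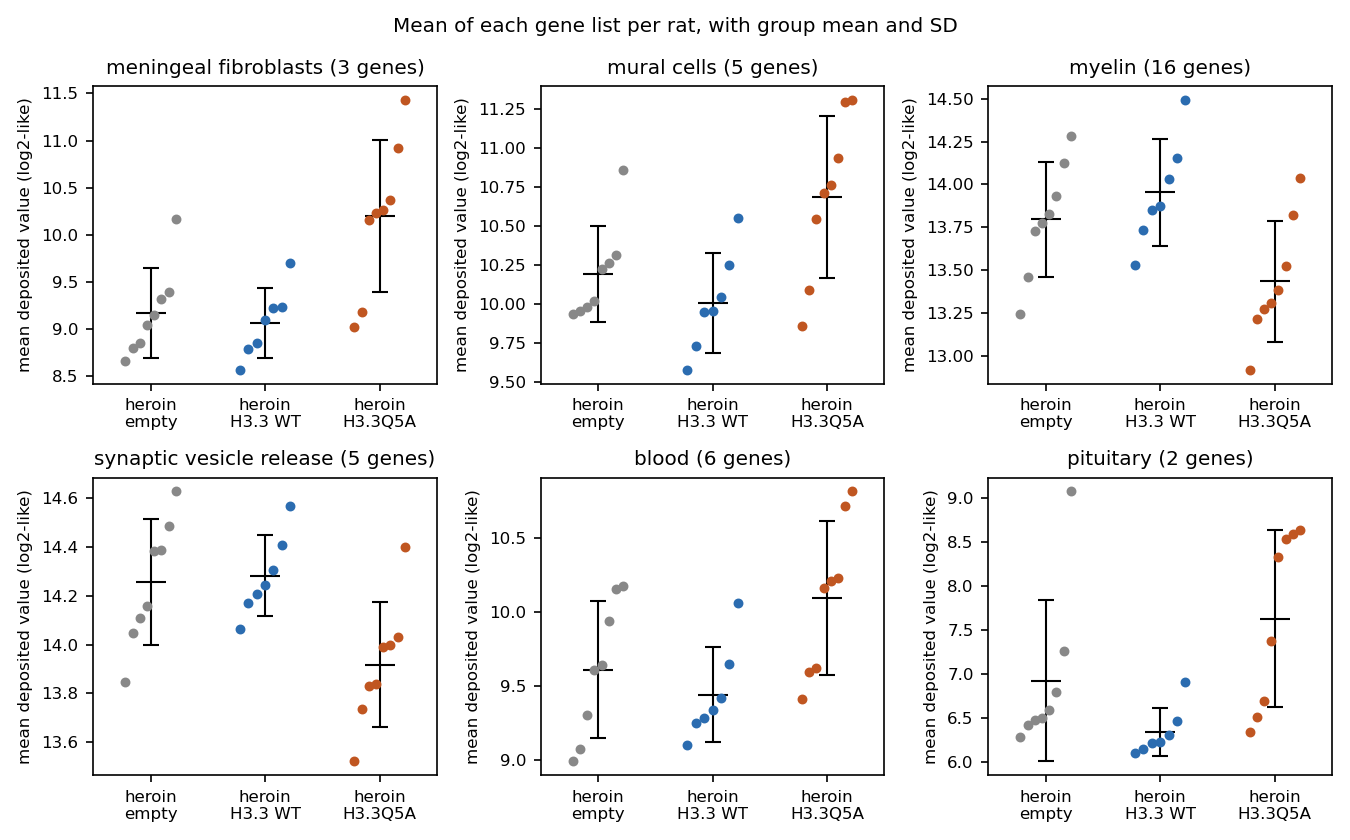
Mean deposited value per rat (log2-like scale, y axis) over the named genes of 6 lists in the 3 heroin groups, with the group mean and SD. For meningeal markers, 2 of the 8 H3.3Q5A rats lie within the H3.3 WT range of 8.57 to 9.70, and the myelin means of H3.3Q5A rats reach down to 12.92.

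Of the 22 oligodendrocyte and myelin genes 16 were named, and 4 of these fell, against 2.1% of all named genes. All 16 named members had negative fold changes, with a median of -0.55 against -0.0061 over all named genes. Opalin, a membrane protein of myelinating cells, ran from 12.10 to 13.63 with a median of 12.69 in H3.3Q5A and from 13.03 to 14.03 with a median of 13.35 in H3.3 WT rats. It was lower in 6 of 8 H3.3Q5A rats than in any H3.3 WT rat, and rats 21 and 40, at 13.63 and 13.14, were not. The fold change was -0.69 ± 0.18 (adjusted p = 0.0266). Fa2h, which hydroxylates the fatty acids of myelin lipids, fell by 0.63 ± 0.19 (adjusted p = 0.0497), and Olig2, a transcription factor of the lineage, by 0.44 ± 0.13 (adjusted p = 0.049). The myelin genes Mbp, Mag and Mobp were at -0.56, -0.59 and -0.59 with adjusted p of 0.0759, 0.067 and 0.0521. Car2, a carbonic anhydrase of oligodendrocytes, fell by 0.59 ± 0.15 (adjusted p = 0.0263). H3.3 WT rat 11 was highest in the list mean, at 14.50 against 13.53 to 14.16 in the other H3.3 WT rats, and without it Opalin had an adjusted p of 0.0985. Fa2h and Olig2 were each called in 4 of 15 fits with 1 rat left out, Opalin in 10 and Car2 in 11.

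Of the 4 named genes of oligodendrocyte precursors, none was DEx. Cspg4, their proteoglycan, was at -0.12 ± 0.08, and Gpr17, of cells about to differentiate, at -0.25 ± 0.12. Olig1, which is also among the myelin genes above, was at -0.44 ± 0.14. Sox11 went the other way, at 0.27 ± 0.14 (adjusted p = 0.295). Gpr17 overlaps Lims2, which has the same limit as Tagln above.

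Of 3 named cholesterol synthesis genes, 2 fell, against 2.1% of all named genes. Mvk, mevalonate kinase, was 9.92 to 10.22 with a median of 10.07 in H3.3Q5A and 10.22 to 10.54 with a median of 10.32 in H3.3 WT rats, with no overlap. It fell by 0.27 ± 0.06 (adjusted p = 0.0165). Dhcr7, which makes cholesterol in the last step, fell by 0.22 ± 0.05 (adjusted p = 0.0172). For Dhcr7, heroin empty rats were at 10.44 ± 0.13 (SD, n = 8), near the H3.3Q5A mean of 10.40 ± 0.12 (SD, n = 8), while H3.3 WT rats were at 10.63 ± 0.10 (SD, n = 7). Cox5a, a subunit of cytochrome c oxidase, fell by 0.20 ± 0.06 (adjusted p = 0.0497) and was called in 3 of 15 fits with 1 rat left out. It was the 1 of 2 named members of the OXPHOS list that was DEx, against 2.1% of all named genes. Both members had negative fold changes. Named OXPHOS genes outside this list are not counted here.

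An ion channel and a calcium pump were among the neuronal genes that fell. Hcn2, a hyperpolarization-activated channel that paces firing, ran from 12.11 to 13.45 with a median of 12.65 in H3.3Q5A and from 12.99 to 13.76 with a median of 13.47 in H3.3 WT rats. It lay below every H3.3 WT rat in 7 of 8 H3.3Q5A rats. The fold change was -0.62 ± 0.17 (adjusted p = 0.0302), and heroin empty rats lay between, at 13.02 ± 0.36 (SD, n = 8). Hcn2 was called in 8 of 15 fits with 1 rat left out, and its highest adjusted p was 0.109 without H3.3Q5A rat 25. Atp2b2, a plasma membrane calcium pump, fell by 0.41 ± 0.11 (adjusted p = 0.0244). H3.3 WT rat 11, at 15.12, stood above the other H3.3 WT rats at 14.41 to 14.71, and without it Atp2b2 had an adjusted p of 0.0979 (called in 10 of 15 fits). Both belong to the ion channel list, of which 4 genes were named and 2 fell, against 2.1% of all named genes. Scn3a, a sodium channel on that list, was at 0.22 ± 0.10 (adjusted p = 0.241).

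Thy1, a surface protein of neurons, fell by 0.30 ± 0.08 (adjusted p = 0.0215), from 40515 normalized reads on average in H3.3 WT to 32742 in H3.3Q5A rats. It was the 1 of 2 named pan-neuronal markers that was called, against 5.21% of all named genes. The other, Eno2, neuronal enolase, was at -0.13 ± 0.11 (adjusted p = 0.557). Elavl3, a neuronal RNA-binding protein, fell by 0.27 ± 0.07, Syt3, a synaptotagmin, by 0.35 ± 0.09, and Kirrel3, an adhesion molecule of synapses, by 0.27 ± 0.06. Map6d1, related to a microtubule stabilizer, fell by 0.57 ± 0.15, Cabp7, a calcium-binding protein, by 0.72 ± 0.21, and Pcp4l1, related to a calmodulin regulator of Purkinje cells, by 0.58 ± 0.16. Further decreases were in Pde8a, a cAMP phosphodiesterase (0.54 ± 0.15), Fhdc1, a formin-like gene (0.47 ± 0.12), Insc, an orienter of the mitotic spindle (0.59 ± 0.15), and Tspan15, a tetraspanin (0.49 ± 0.13). Among genes without a name, ENSRNOG00000006226 fell by 0.30 ± 0.06 and ENSRNOG00000038291 by 0.38 ± 0.08. Cabp7 was called in 4 of 15 fits with 1 rat left out, Pcp4l1 in 8, Elavl3, Syt3 and Pde8a in 9, and Kirrel3 in all 15.

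Of 27 genes of synaptic vesicle release 5 were named, 4 of them had negative fold changes and none was DEx. Syt2, the fast calcium sensor of release, had a fold change of -0.92 ± 0.29 with an adjusted p of 0.0596, and 7 of 8 H3.3Q5A rats lay below every H3.3 WT rat. H3.3Q5A rat 21, at 13.09, was the exception. Cplx1, complexin 1, was at -0.66 ± 0.23 (adjusted p = 0.0856), Dnm1, the endocytic dynamin, at -0.20 ± 0.07, and Syn1, synapsin 1, at -0.19 ± 0.09. Of 7 named glutamate receptor and scaffold genes none was DEx. Grm3, a metabotropic receptor, was nearest at -0.50 ± 0.15 (adjusted p = 0.0585), with Grik2 at 0.13 ± 0.09 and Shank1 at -0.15 ± 0.14.

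**Figure D4:**
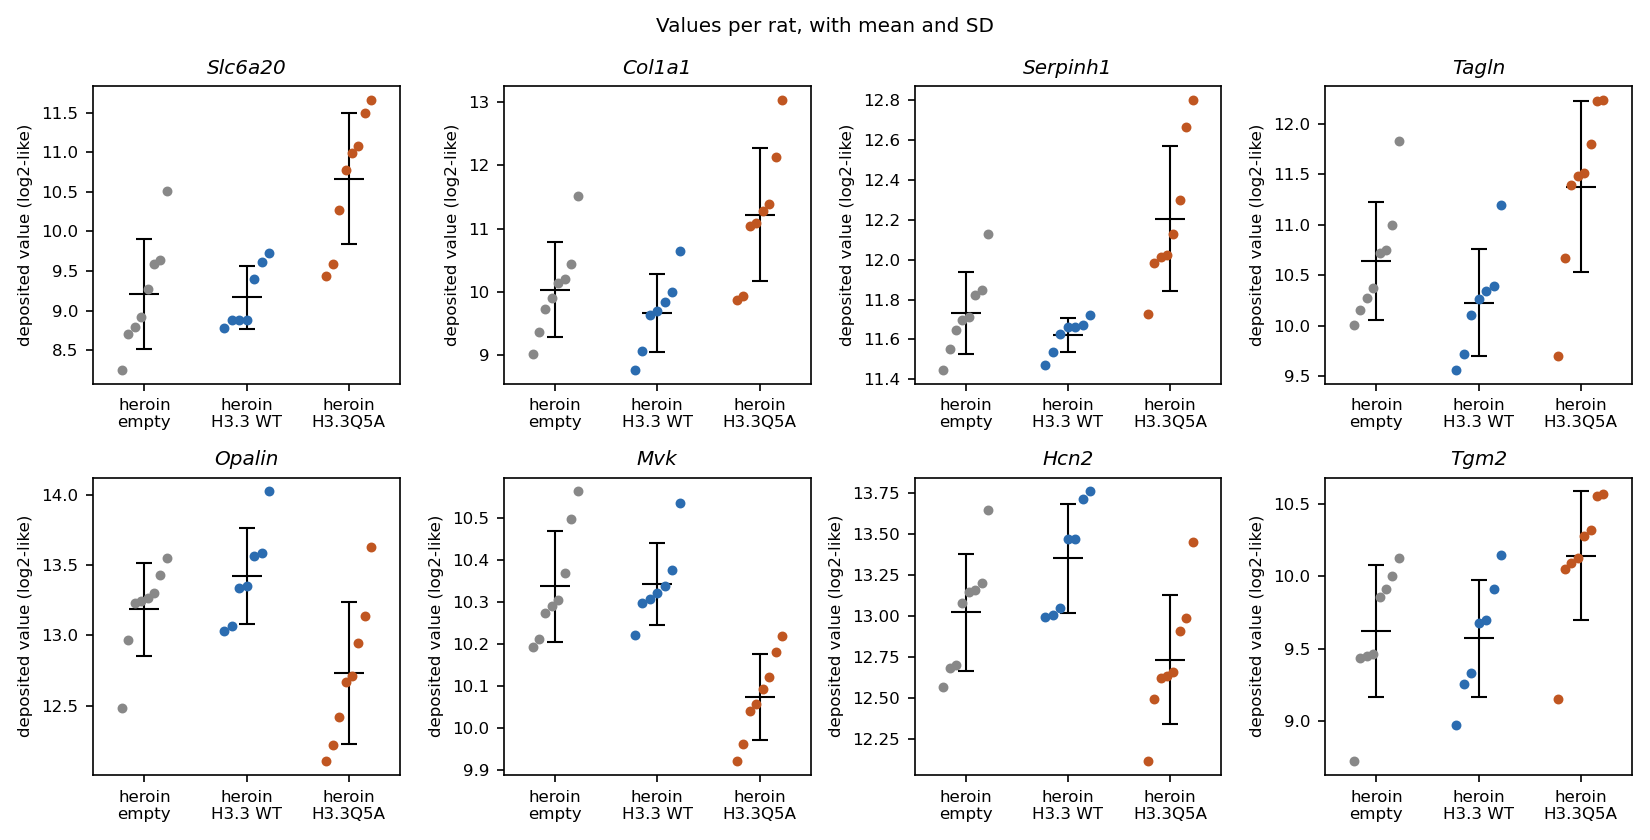
Deposited values (log2-like scale, y axis) of 8 genes in each rat of the 3 heroin groups, with mean and SD. Serpinh1 and Mvk do not overlap between H3.3Q5A and H3.3 WT rats, while for Slc6a20, Col1a1, Tagln, Opalin, Hcn2 and Tgm2 at least 1 H3.3Q5A rat lies within the H3.3 WT range.

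Neither the enzyme that writes the mark nor the named genes of the machinery around it passed the threshold. Tgm2 was 9.16 to 10.56 with a median of 10.20 in H3.3Q5A and 8.98 to 10.14 with a median of 9.67 in H3.3 WT rats, a fold change of 0.57 ± 0.20 (adjusted p = 0.0903). It was called in 1 of 15 fits with 1 rat left out, with an adjusted p of 0.025. Among the H3K4 methylation genes, which act on the residue next to glutamine 5, the demethylases Kdm5b and Kdm5a were at 0.15 ± 0.05 and -0.016 ± 0.04, and Rbbp5, a subunit of methyltransferase complexes, at 0.054 ± 0.04. The named H3.3 chaperone list members Nasp and Cabin1 were at 0.093 ± 0.07 and 0.023 ± 0.07. In dopamine signaling, Prkar2b, a regulatory subunit of protein kinase A, was at 0.19 ± 0.07 and Adcy5, an adenylyl cyclase, at -0.018 ± 0.06. The cytokine receptors Il17ra and Cntfr were at 0.10 ± 0.07 and -0.037 ± 0.14. Slc17a8, a vesicular glutamate transporter, was at 0.16 ± 0.17. The stress and growth genes Hspb1, Sdf2l1, Ier2 and Rpl13 were at 0.55 ± 0.21, -0.0022 ± 0.08, -0.030 ± 0.14 and 0.014 ± 0.05. None of the genes in this paragraph was DEx in the fit of all 6 groups.

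Against heroin empty rats, which share the H3.3Q5A libraries with this comparison, the upregulated genes had a median difference of 0.48 and the downregulated genes one of -0.27. Over all genes tested, 604 (2.96%) were upregulated and 208 (1.02%) downregulated in H3.3Q5A against heroin empty rats. They included 332 of the 479 upregulated and 53 of the 195 downregulated genes, with the H3.3Q5A libraries in both comparisons. Among named genes, these were 47 of 62 upregulated and 4 of 42 downregulated genes. Kirrel3, for example, was at -0.044 against heroin empty rats (adjusted p = 0.737). Whether the directions differ in this respect was not tested. H3.3 WT minus heroin empty had medians of -0.072 over the upregulated and 0.10 over the downregulated genes, and the genes were called on the same H3.3 WT libraries. For Slc6a20 heroin empty rats were at 9.21 ± 0.70 (SD, n = 8) and H3.3 WT rats at 9.17 ± 0.40 (SD, n = 7). For Opalin they were at 13.18 ± 0.33 and 13.42 ± 0.34.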

How the data were processed

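RNA from VTA punches was sequenced as polyA-selected, unstranded libraries, 1 per rat, so overlapping genes cannot be told apart. The authors mapped reads with HISAT2 2.1.0 (rn6, Ensembl genes), removed multi-mapped reads, counted with featureCounts 2.0.1 and transformed with DESeq2 2.11.40.6. The deposited values are log2-like variance-stabilized counts with no RUVr factor subtracted. Inverting them gave whole reads for 100% of values (tolerance 0.05), so depth was recovered. Replicates are rats by the labels. A saline library whose labels name different vectors entered no group. The study names an AAV2 vector and the series text a lentiviral one.

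Values were fitted in R 4.3.3 with limma 3.58.1, as 6 group means over 44 libraries with an intensity trend, and adjusted by Benjamini-Hochberg over 20412 genes. The SE and p of a fold change thus assume the same spread in all 6 groups. The median SD over all genes tested was 0.13 in H3.3Q5A and 0.14 in H3.3 WT rats. For named upregulated genes it was 0.45 and 0.23, a difference that the SE does not reflect. Read totals were compared with scipy by an exact permutation test. The fit was tested on simulated data of this comparison over 20412 genes: of 100 genes changed 1.5-fold 77 were recovered, of 100 changed 2-fold 92, and 7 of 20212 unchanged genes were called. The simulation drew each gene independently, with the same spread in every group, and changed no gene with few reads. Differences between rats that many genes share were not simulated, so it cannot give the rate of false calls or of recovery in their presence. In 49 pairs of libraries within the groups, the lowest chi-square per gene was 15.5, so none agreed within sampling noise. Members, lists and the rule for named genes were chosen with earlier results of these data known.

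Named were the 15 lowest p in each direction with a symbol, the 5 largest fold changes in each direction above the median level, up to 6 DEx members of each of 35 lists or else its 3 most expressed members, Tgm2 with 9 genes picked with earlier results of these data known, and 4 identifiers without a symbol. Further list members without a call (Acta2, Eno2, Loxl1, Mag, Mbp, Mmp2, Mmp14, Mobp, Notch3, Pdgfrb, Sox11) were added after their values were seen. Names and positions came from the 1998 readable rows of a supplementary table, ordered by a saline contrast that does not use these libraries. Lists without a named gene (dopamine, GABA, cholinergic and serotonergic neurons, GABA and opioid receptors, interferon response, ependyma and choroid plexus, mitochondrial genome) gave no value. Results for some genes that the rule selects are not reported here. Of the named genes, 1861 were found in RefSeq by symbol. Alternatives were quantile normalization, centring on the median, other filters, the read total as covariate, 1 or 3 residual factors, fewer groups, array weights, voom, other thresholds and leaving out each rat. Voom with the authors' size factors and leaving out pairs or sets of rats were chosen after seeing the data.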

Additional observations from a re-analysis of the deposited data

Results flagged for a closer look

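Among 182 groups of values (91 genes in 2 groups), 13 had 1 rat whose gap to the nearest other exceeded the 95% limit of Dixon's test, where chance gives about 1 in 20, or 9.1. H3.3 WT rat 11 stood apart in 6 of them. It was highest in Syt2 (13.71 against 12.21 to 12.61 in the other rats), Cplx1 (15.59 against 14.41 to 14.88), Cabp7 (12.39 against 10.90 to 11.52) and Atp2b2 (15.12 against 14.41 to 14.71), and lowest in Scn3a (11.13 against 11.52 to 11.76) and Slc17a8 (7.13 against 7.76 to 8.09).

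H3.3Q5A rat 21 stood apart in 5. It was highest in Pcp4l1 (11.58 against 10.64 to 10.98) and Il17ra (10.64 against 10.06 to 10.25), and lowest in Grik2 (11.39 against 11.70 to 11.98), Cabin1 (11.60 against 11.79 to 11.87) and Slc17a8 (7.27 against 7.85 to 8.19). H3.3Q5A rat 24 was lowest in Tgm2, at 9.16 against 10.05 to 10.56. H3.3 WT rat 20 was highest in Cx3cr1, at 10.71 against 10.26 to 10.43.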

How the results depend on the processing

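The 674 DEx genes (479 up, 195 down) became 344 (295 up, 49 down) without a filter on low values, 1123 (701 down) with median centring, 1645 (961 and 684) with 1 residual factor, 2229 (1297 and 932) with 3 and 438 (100 down) with the log2 read total as covariate. They became 1336 (813 and 523) with array weights, 305 (272 and 33) in the 3 heroin groups, 306 (258 and 48) beyond a log2 fold change of 0.5 and 1343 (837 and 506) at an adjusted p under 0.1. Voom on the recovered reads gave 745 and voom with the authors' size factors 624. None remained in the 15 libraries alone (0, with 0 up and 0 down), nor, in fits chosen after seeing the data, without H3.3Q5A rats 25 and 26 or without rats 25, 37, 39 and 43, where the fits hold fewer samples. With 1 rat left out, totals ran from 172 to 1571, upregulated genes from 160 to 894 and downregulated genes from 9 (without H3.3 WT rat 11) to 677. No DEx gene named in the text changed direction under any alternative. Some genes without a call were called with 1 rat left out, such as Grm3 and Olig1 in 4 of 15 fits and Acta2, Mag and Mobp in 3. The cause of these shifts was not tested.

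Genes without a call and near 0 changed sign. Quantile normalization gave Kdm5a 0.0058, Adcy5 0.024 and Mmp2 -0.027. Voom on the recovered reads gave Kdm5a 0.027, Adcy5 0.026, Cntfr 0.0096, Ier2 0.025, Notch3 0.020 and Sdf2l1 0.045. Leaving out H3.3Q5A rats 25, 37, 39 and 43 gave Kdm5a 0.018, Cabin1 -0.018, Sdf2l1 0.067 and Rpl13 -0.045. Array weights gave Adcy5 0.017 and Cntfr 0.011. Median centring gave Cabin1 -0.025, Mmp2 -0.021 and Rpl13 -0.035. Leaving out H3.3Q5A rats 25 and 26 gave Sdf2l1 0.0074 and Mmp2 -0.044. Voom with the authors' size factors gave Sdf2l1 0.0028. With 1 rat left out, the log2 fold change ran for Adcy5 from -0.040 to 0.014, Cabin1 from -0.0044 to 0.061, Cntfr from -0.094 to 0.041, Ier2 from -0.086 to 0.054, Kdm5a from -0.033 to 0.0075, Mmp2 from -0.032 to 0.11, Notch3 from -0.12 to 0.032, Rpl13 from -0.024 to 0.030 and Sdf2l1 from -0.041 to 0.037. No pairing of heroin H3.3Q5A with heroin H3.3 WT rats was possible because these groups share no rat number. The number 21 occurs in both the heroin H3.3Q5A and the heroin empty group, without a label that pairs them. Read numbers limit the precision of genes with few reads.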
